A study of Homo sapiens with 4 samples.

Results

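The transcripts of the translation initiation factors, of the kinases that act on them and of the eIF4E-binding proteins were compared between HLE cells stably expressing CYR61 and HLE cells stably carrying an empty vector. Members were protein-coding genes with a symbol that starts with EIF and a mean of at least 1 CPM (read counts scaled to the size of the library) over the 4 libraries. Of 56 such genes among 20286 identifiers, 51 reached that level and all 51 were among the 12698 genes tested. EIF2S3B, EIF4E1B, EIF4EBP3 and EIF5AL1 did not reach it, nor did EIF1AY, whose level is not given. HLE is an established human hepatocellular carcinoma line, and CYR61, now named CCN1, is a secreted protein that binds to the matrix around cells. There were 2 CYR61 libraries and 2 vector libraries. Per the series description the replicates were separately cultured from the whole population of each stable line, and all were grown in the same serum-containing medium. The p-values therefore measure the spread between cultures of 1 population each, not between stable lines made anew.

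Initiation is the step at which a ribosome finds the start codon of an mRNA. The factor eIF2 carries the initiator tRNA to the small ribosomal subunit, eIF2B recharges eIF2 with GTP, eIF3 organises the complex, and eIF4F (eIF4E, eIF4G and eIF4A) recruits it to the capped mRNA. A set of stress kinases phosphorylates the alpha subunit of eIF2, which blocks eIF2B and lowers general initiation, while hypophosphorylated eIF4E-binding proteins (4E-BPs) keep eIF4E from eIF4G. Both controls act on proteins, and only transcript levels were measured here.

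The libraries held 21388442 (CYR61 1), 16186991 (CYR61 2), 19118552 (vector 1) and 21588805 (vector 2) rounded counts. CYR61 itself, the check of the labels, was at 8091 and 8619.6 CPM in the CYR61 libraries, against 221 and 218 CPM in the vector libraries. Of the hepatocyte markers, ALB and TTR had 0 counts in every library, AFP and APOA1 had at most 2, and the summed level of the 6 markers was 4.60 to 4.76 CPM in CYR61 and 5.12 to 6.85 CPM in vector libraries. The epithelial markers KRT8, KRT18 and KRT19, of which KRT19 had at most 2 counts, summed to 4197 to 4661 CPM in CYR61 and 3237 to 3762 CPM in vector libraries, with VIM at 1496 to 1769.6 and 1706 to 1958 CPM. Leukocyte markers summed to 48.8 to 53.7 CPM in CYR61 and 62.8 to 67.6 CPM in vector libraries, nearly all of it CD68, and PTPRC and CD3E had at most 1 count. Endothelial markers summed to at most 2.51 and 2.07 CPM. Fibroblast and smooth muscle markers summed to 26.7 to 27.6 CPM in CYR61 and 24.5 to 32.9 CPM in vector libraries. Most of that sum was COL1A1 (22.9 to 31.0 CPM), and PDGFRA had 0 counts in every library. DCN was higher in CYR61 than in vector libraries (3.68 and 2.26 against 0.637 and 0.544 CPM). ACTA2 was lower (0.791 and 0.564 against 1.22 and 1.04 CPM). Fewer cells of a type and less RNA per cell cannot be told apart in such bulk libraries. Libraries of 1 group differed by the GC content of the transcript. Over the 51 members, Spearman's rho of GC content was -0.76 with CYR61 1 minus CYR61 2 and 0.79 with vector 1 minus vector 2. It was -0.08 with the log2 fold change between the groups. Over 12008 tested genes with a mean of at least 1 CPM, the same 3 values were -0.72, 0.67 and -0.18. All members of a library share that library, so these are descriptions.

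EIF4G1 and EIF4G2 rose in CYR61-expressing cells, and EIF1 and EIF4EBP1 fell, each by a factor of about 1.44 to 1.5. A call was an adjusted p below 0.05 in edgeR's quasi-likelihood test with Benjamini-Hochberg adjustment over all genes tested. By this rule 2 members were higher and 2 lower, where 1.83% of all tested genes were higher and 4.56% lower. That is 7.84% of the 51 members, near the 6.39% called among all tested genes and the 6.63% among those with a mean of at least 1 CPM. With 1 library left out, the log2 fold change ran from 0.48 to 0.59 for EIF4G1 and from 0.41 to 0.66 for EIF4G2. It ran from -0.64 to -0.52 for EIF1 and from -0.64 to -0.40 for EIF4EBP1. The other 47 members were not called, with log2 fold changes (CYR61 minus vector) from -0.42 to 0.50. The log2 fold change was above 0 in 38 members (74.5%) and below 0 in 13, with a median of 0.14, against 49.2% above 0 and a median of -0.006 over all tested genes. In CPM, 21 members (41.2%) were higher in both CYR61 libraries than in both vector libraries, where 23.9% of all tested genes were. Another 8 members (15.7%) were lower in both, against 27.7% of all tested genes, and the remaining 22 overlapped between the groups. At an unadjusted edgeR p below 0.05 there were 16 members (31.4%), against 22.9% of all tested genes. The members took 1.48% and 1.40% of all counts in the CYR61 libraries and 1.29% and 1.32% in the vector libraries.

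**Figure D1:**
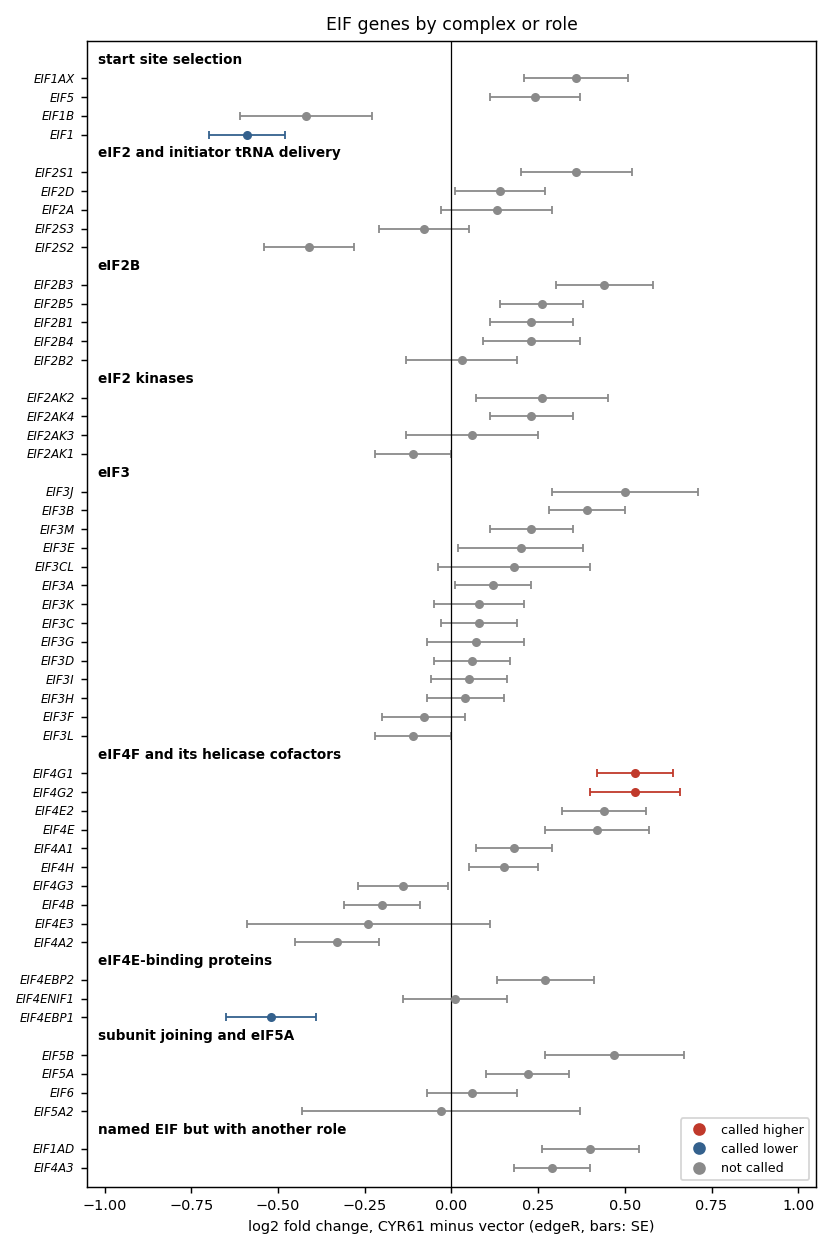
Log2 fold change (x axis, CYR61 minus vector, edgeR, bars are SE, 2 libraries per group) of the 51 EIF genes, grouped by complex or role. EIF4G1 and EIF4G2 (both 0.53) were called higher, EIF1 (-0.59) and EIF4EBP1 (-0.52) lower, and the other 47 genes were not called.

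The eIF4F group held both rises. EIF4G1 (ENSG00000114867, chr3:184314495-184335358 on hg38, plus strand) encodes the scaffold that joins eIF4E, eIF4A and eIF3. It stood at 1296 and 1368 CPM in the CYR61 libraries, against 958 and 884 CPM in the vector libraries. The groups did not overlap, and the means were 1332 ± 50.7 and 921 ± 52.4 CPM (SD, n = 2 each). The log2 fold change was 0.53 (SE 0.11, edgeR adjusted p = 0.018). Without vector 2 the call was lost (edgeR adjusted p = 0.115), and it held with each other library left out (edgeR adjusted p = 0.0195 to 0.0493).

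EIF4G2 (ENSG00000110321, chr11:10797050-10809110, minus strand) encodes DAP5, an eIF4G relative that lacks the eIF4E-binding part and serves cap-independent and other non-standard initiation. It stood at 1311 and 1106 CPM in CYR61 libraries, against 769 and 911 CPM in vector libraries. The groups did not overlap, and the spread within groups was wider than for EIF4G1 (1209 ± 145 and 839.9 ± 100.0 CPM, SD, n = 2 each). The log2 fold change was 0.53 (SE 0.13, edgeR adjusted p = 0.0399). The call was lost without CYR61 1 (edgeR adjusted p = 0.185), without vector 1 (0.197) and with library size alone as the scaling (0.0703). Its transcripts share 134 exonic bases with the antisense gene CTR9, which was at 102 and 83.5 CPM in CYR61 and 69.8 and 80.6 CPM in vector libraries. Whether the counts used strand is not given. The same limit holds for other members that share exonic bases with antisense genes, among them EIF5B (852 bases), EIF4E2 (541) and EIF2AK1 (532). With its GC content of 40.5%, EIF4G2 followed the within-group pattern of transcripts of low GC content, higher in CYR61 1 than CYR61 2 and in vector 2 than vector 1. EIF4G3, the third eIF4G gene, was not called, at 93.5 and 85.0 CPM in CYR61 and 90.8 and 105 CPM in vector libraries (log2 fold change -0.14). Its groups overlapped. Scaled by exon length as well (TPM), EIF4G1 was at 16.1 and 18.7 times EIF4G3 in CYR61 libraries, against 12.3 and 9.74 times in vector libraries. The log2 difference was 0.67, with an exact two-sided permutation p of 0.333, the smallest possible, which cannot decide whether the groups differ. EIF4G2 was not compared with the other 2 in this way.

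The other members of the group were not called. EIF4E, the cap-binding subunit, was at 50.5 and 42.2 CPM in CYR61 libraries, against 31.4 and 37.7 CPM in vector libraries (log2 fold change 0.42, edgeR adjusted p = 0.128). Its paralog EIF4E2, which encodes 4EHP, a cap-binding protein that does not join eIF4G1, was at 70.8 and 67.8 CPM in CYR61 and 50.2 and 52.1 CPM in vector libraries (0.44, edgeR adjusted p = 0.0616). Neither gene overlapped between the groups. DESeq2 called EIF4E2 (adjusted p = 0.0341). It called 6 of the 51 members, 4 higher and 2 lower, and 7.44% of all tested genes, 2.80% higher and 4.64% lower. For the helicase genes, EIF4A1 had a log2 fold change of 0.18 and EIF4A2 of -0.33. The helicase cofactor genes EIF4B and EIF4H had log2 fold changes of -0.20 and 0.15. EIF4E3 was near the lower limit of the members at 1.25 to 1.99 CPM, and reads of an overlapping gene model of the same strand make it uncertain. EIF4A1 shares exons with the readthrough gene SENP3-EIF4A1, which had at most 1.63 CPM.

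**Figure D2:**
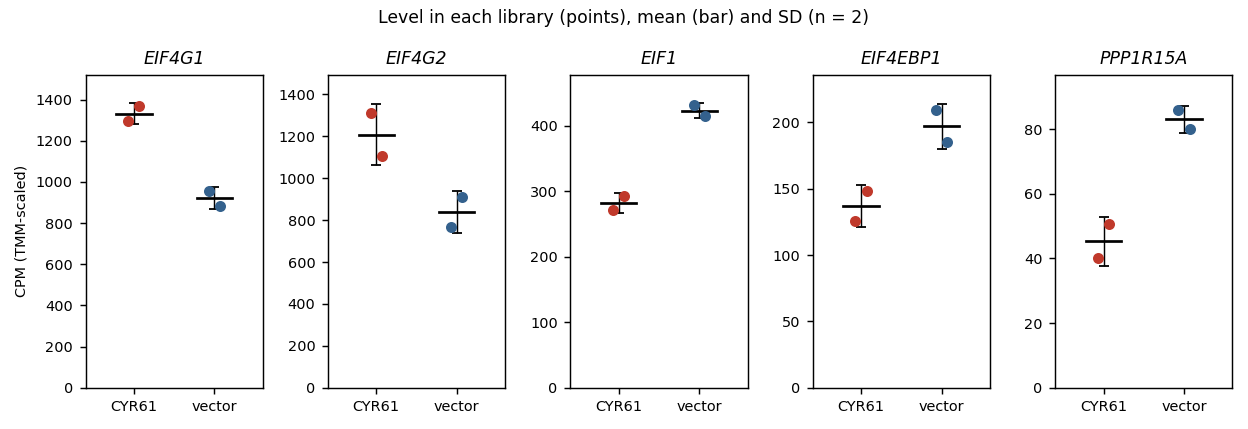
CPM (y axis, from 0, TMM-scaled) in each CYR61 and vector library of the 4 called EIF genes and of PPP1R15A, with the mean and SD (n = 2). EIF4G1 and EIF4G2 were higher, and EIF1, EIF4EBP1 and PPP1R15A lower, in both CYR61 libraries than in both vector libraries.

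Bases upstream of 3 of the 4 called genes are shown to set their promoters side by side (RefSeq, GRCh38.p14, gene strand). Each stretch ends at the first annotated start of the gene, and that of EIF4EBP1 is not shown. Capitals mark CACGTG, the E-box of MYC and other helix-loop-helix factors. The EIF4G1 stretch is chr3:184314356-184314494 on the plus strand, the EIF4G2 stretch is chr11:10809111-10809176 on the minus strand, and the EIF1 stretch is chr17:41688635-41688884 on the plus strand.
EIF4G1: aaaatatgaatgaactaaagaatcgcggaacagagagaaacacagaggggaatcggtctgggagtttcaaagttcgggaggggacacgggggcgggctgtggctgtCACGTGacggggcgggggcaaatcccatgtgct
EIF4G2: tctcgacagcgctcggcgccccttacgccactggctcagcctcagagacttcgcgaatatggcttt
EIF1: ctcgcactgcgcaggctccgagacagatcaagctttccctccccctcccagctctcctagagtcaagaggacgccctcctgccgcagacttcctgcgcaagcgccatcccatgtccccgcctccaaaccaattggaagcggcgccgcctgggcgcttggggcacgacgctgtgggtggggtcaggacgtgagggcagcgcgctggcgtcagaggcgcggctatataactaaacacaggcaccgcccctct
Among 250 bases before the most upstream start, CACGTG (its own reverse complement) was found in 11 of the 42 members with an entry (26.2%), in 8.91% of 10183 tested genes and in 6.46% of all 27305 genes with an entry. The EIF4G1 window held 2 copies, 1 of them in the printed stretch, and the EIF4G2 and EIF1 windows held none. The other members with a copy were EIF1B, EIF2AK2, EIF2B3, EIF3F, EIF3K, EIF4A3, EIF4B, EIF4E, EIF4H and EIF5A2, none of which was called. The sequence TGATGNAA, the core of the element bound by ATF4 with C/EBP factors, on either strand, was in 0 of the 42 members and in 1.25% of the tested genes. Whether EIF4EBP1 was among these 42 is not given here, so nothing follows for its promoter. The motifs can share the bases TG, and no member held both. A match is a sequence description and no measure of binding.

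Of the factors that select the start codon, EIF1 fell. EIF1 (ENSG00000173812, chr17:41688885-41692668) encodes the small protein that keeps the scanning ribosome from accepting poor start codons. It stood at 271 and 293 CPM in CYR61 libraries, against 431 and 415 CPM in vector libraries. The groups stood apart, at 282 ± 15.8 and 423 ± 11.4 CPM (SD, n = 2 each). The log2 fold change was -0.59 (SE 0.11, edgeR adjusted p = 0.0119), the smallest adjusted p of the 51 members. The call was lost without CYR61 1 (edgeR adjusted p = 0.0704) and without vector 1 (0.0521). Its paralog EIF1B was at 17.0 and 13.5 CPM in CYR61 and 17.8 and 23.1 CPM in vector libraries (log2 fold change -0.42, edgeR adjusted p = 0.218), lower in both CYR61 libraries, though CYR61 1 was close to vector 1.

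EIF5, the GTPase-activating factor of eIF2 that works against eIF1 at the start codon, was at 264 and 218 CPM in CYR61 and 189.7 and 219 CPM in vector libraries (log2 fold change 0.24, not called). Its groups overlapped. EIF1AX, which promotes scanning together with eIF1, was at 172 and 135 CPM in CYR61 and 106 and 132 CPM in vector libraries (0.36, edgeR adjusted p = 0.184). In TPM, which also scales the counts by exon length, the level of EIF1 was 2.41 and 3.16 times that of EIF5 in CYR61 libraries, against 5.34 and 4.46 times in vector libraries. The difference on the log2 scale was -0.82, with an exact two-sided permutation p of 0.333, the smallest that 2 libraries against 2 allow. This ratio, that of EIF4G1 to EIF4G3 and those below were chosen after the values were seen. With 2 libraries against 2 their permutation p cannot fall below 0.333, so it decides nothing about them. The size of each ratio also depends on the exon lengths used.

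EIF4EBP1 (ENSG00000187840, chr8:38030341-38060365, plus strand), which encodes 4E-BP1, fell. It stood at 126 and 148 CPM in CYR61 libraries, against 209 and 185 CPM in vector libraries. The groups did not overlap, with means of 137 ± 15.5 and 197 ± 17.1 CPM (SD, n = 2 each). The log2 fold change was -0.52 (SE 0.13, edgeR adjusted p = 0.037). The call was lost without CYR61 1 (edgeR adjusted p = 0.212), without vector 1 (0.255) and with RLE size factors (0.0530). At 65.5% its GC content was the highest of the members, and removing the GC trend gave a log2 fold change of -0.41 (edgeR adjusted p = 0.000923). EIF4EBP1 is a known target of the transcription factor ATF4 in mouse pancreatic islets.

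EIF4EBP2, the second 4E-BP gene, was at 94.8 and 77.6 CPM in CYR61 libraries, against 66.9 and 76.2 CPM in vector libraries. Its groups nearly touched, and it was not called (log2 fold change 0.27, edgeR adjusted p = 0.281). EIF4EBP3 had 0 counts of its own, while the readthrough gene ANKHD1-EIF4EBP3, which shares 507 of its exonic bases, had 65.4 and 43.4 CPM in CYR61 and 50.5 and 49.6 CPM in vector libraries, so no level of EIF4EBP3 can be given. EIF4ENIF1, which encodes the eIF4E transporter 4E-T, was at 21.2 and 23.9 CPM in CYR61 and 22.9 and 21.8 CPM in vector libraries (log2 fold change 0.01). The TPM of EIF4EBP1 was 32.8 and 46.1 times that of EIF4E in CYR61 libraries, against 87.4 and 64.4 times in vector libraries. The union of annotated exons was 14067 bases for EIF4E and 1073 for EIF4EBP1, so much of the ratio's size comes from these lengths. The log2 difference was -0.95. Its exact two-sided permutation p of 0.333, the smallest possible, cannot decide whether the groups differ.

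Of 5 genes for eIF2 and delivery of the initiator tRNA, 0 were called by edgeR or DESeq2, and 2 had an unadjusted edgeR p below 0.05, as did 22.9% of all tested genes. EIF2S1, the alpha subunit that the stress kinases phosphorylate, was at 139 and 100.1 CPM in CYR61 libraries, against 85.7 and 101 CPM in vector libraries (log2 fold change 0.36, edgeR adjusted p = 0.216). EIF2S2, the beta subunit, was at 183 and 147 CPM in CYR61 libraries, against 210.3 and 228 CPM in vector libraries (-0.41, edgeR adjusted p = 0.0946), and its groups did not overlap. EIF2S3, the gamma subunit, overlapped between the groups at 367 and 295 against 324 and 375 CPM (-0.08). The TPM of EIF2S2 was 2.79 and 3.12 times that of EIF2S1 in CYR61 libraries and 5.22 and 4.81 times in vector libraries, a log2 difference of -0.76 (exact two-sided permutation p = 0.333, the smallest possible). EIF2A and EIF2D, which encode separate factors able to deliver a tRNA to the ribosome, had log2 fold changes of 0.13 and 0.14.

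All 5 genes of the exchange factor eIF2B had log2 fold changes above 0, from 0.03 to 0.44. Of all tested genes, 49.2% were above 0. By edgeR and by DESeq2 0 were called, and 1 of the 5 had an unadjusted edgeR p below 0.05, a share near the 22.9% of all tested genes. EIF2B3, the gamma subunit of the catalytic part, was at 38.2 and 38.9 CPM in CYR61 libraries, against 29.5 and 27.3 CPM in vector libraries. Its CYR61 values agreed closely and lay above both vector values (0.44, SE 0.14, edgeR adjusted p = 0.0876). EIF2B5, the catalytic subunit, was at 66.7 and 67.7 CPM in CYR61 and 59.1 and 53.1 CPM in vector libraries (0.26, edgeR adjusted p = 0.247). EIF2B1 and EIF2B4 also stood higher in both CYR61 libraries, as did 23.9% of all tested genes. EIF2B2 overlapped, and with 1 library left out its log2 fold change ran from -0.13 to 0.19.

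The 4 eIF2 kinases differ in the stress they sense. Of their transcripts 0 were called by edgeR or DESeq2, and 0 had an unadjusted edgeR p below 0.05. EIF2AK1 encodes HRI, which senses lack of heme and mitochondrial stress. It was the most abundant of the 4 per exon length, at 140.3 and 124 TPM in CYR61 and 141 and 152 TPM in vector libraries. In CPM it was at 209.6 and 189 in CYR61 libraries and 212 and 218 in vector libraries (log2 fold change -0.11, edgeR adjusted p = 0.606). EIF2AK2, encoding the double-stranded RNA sensor PKR, was at 77.4 and 53.4 CPM in CYR61 and 46.6 and 62.6 CPM in vector libraries (0.26, edgeR adjusted p = 0.455). Its libraries differed within groups along with its GC content of 38.7%, and its sign turned without CYR61 1 (-0.02). EIF2AK3, encoding the endoplasmic reticulum stress sensor PERK, was the least abundant, at 13.6 and 16.9 CPM in CYR61 and 13.0 and 16.0 CPM in vector libraries (0.06, edgeR adjusted p = 0.880). EIF2AK4, encoding GCN2, the sensor of uncharged tRNA, was at 79.9 and 77.7 CPM in CYR61 and 66.9 and 67.5 CPM in vector libraries. Its replicates agreed closely and the groups did not overlap (0.23, edgeR adjusted p = 0.279). Removal of the GC trend gave a call (0.23, edgeR adjusted p = 0.0274), as for 28.0% of all tested genes.

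Of the 14 eIF3 genes, which build the largest initiation factor, 0 were called by edgeR and 1 by DESeq2. An unadjusted edgeR p below 0.05 was seen for 2 of the 14, a lower share than the 22.9% of all tested genes. Their log2 fold changes ran from -0.11 to 0.50 with a median of 0.08, and 5 of the 14 did not overlap between the groups, where 51.5% of all tested genes did not. EIF3J, a loosely attached subunit, had the highest, at 140.0 and 90.6 CPM in CYR61 and 67.8 and 95.0 CPM in vector libraries (0.50, SE 0.21, edgeR adjusted p = 0.183). The CYR61 libraries lay further apart than the group means (115 and 81.4 CPM). Its GC content was 38.8%, and it was called without CYR61 2 (edgeR adjusted p = 0.000466) or without vector 2 (0.0115). EIF3B, a scaffold subunit with a GC content of 56.0%, was steadier, at 612 and 616 CPM in CYR61 libraries, against 481 and 454 CPM in vector libraries. Its groups did not overlap (0.39, SE 0.11, edgeR adjusted p = 0.0553). DESeq2 called EIF3B (adjusted p = 0.0186), as did edgeR with library size alone (0.0480). The other 12 eIF3 genes had log2 fold changes between -0.11 (EIF3L) and 0.23 (EIF3M). EIF3C and EIF3CL are near-identical copies, so the division of reads between them is uncertain. Their sum was 828 and 907 CPM in CYR61 and 863 and 777 CPM in vector libraries.

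Levels per exon length spread widely even within a complex. Among the eIF3 genes the mean TPM over the 4 libraries ran from 9.24 (EIF3CL) to 595 (EIF3I), with a median of 155. The level of EIF3CL is uncertain, as its reads are hard to divide from those of EIF3C. The next lowest eIF3 gene was EIF3M at 93.5 TPM. The highest member was EIF5A, a factor that carries the hypusine modification and helps the ribosome along difficult stretches, at 1882 and 1983 TPM in CYR61 and 1789.6 and 1602 TPM in vector libraries. EIF4H and EIF4A1 followed. The genes of the cap-binding proteins were far lower, with EIF4E at 13.3 and 10.9 TPM in CYR61 and 8.22 and 10.4 TPM in vector libraries. Lengths were the union of all annotated exons, which is longer than most single transcripts and lowers the TPM of genes with many isoforms.

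**Figure D3:**
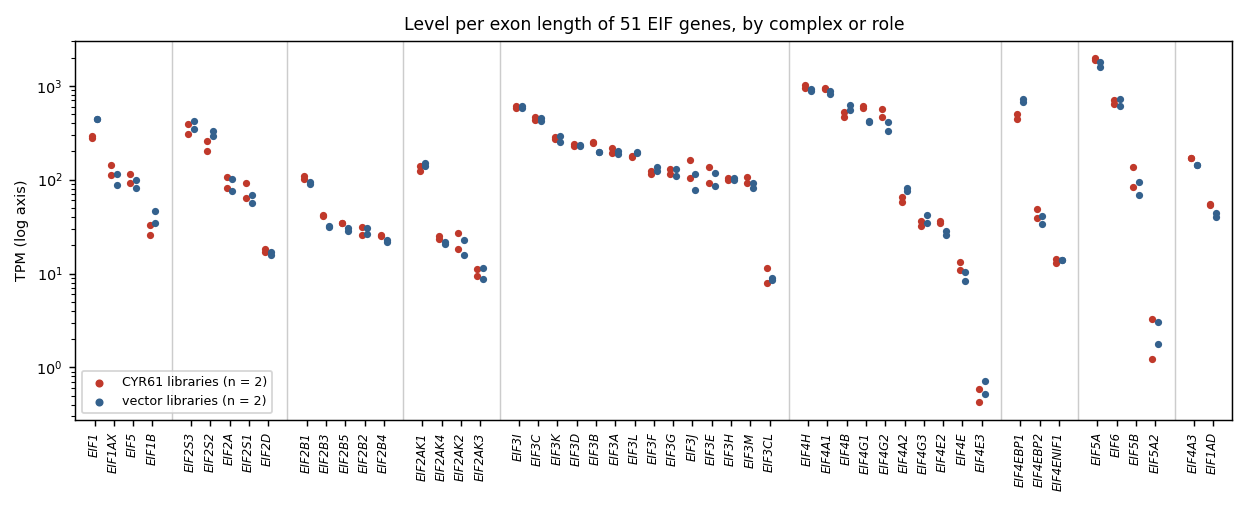
TPM (log axis) of the 51 EIF genes in the 2 CYR61 and 2 vector libraries, each a point, grouped by complex or role. Levels ran from 0.423 to 0.715 TPM for EIF4E3 up to 1602 to 1983 TPM for EIF5A, and differences between genes were far larger than those between groups.

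Of the 4 genes for subunit joining and eIF5A, 0 were called by edgeR or DESeq2, and 1 had an unadjusted edgeR p below 0.05, against 22.9% of all tested genes. EIF5B, the GTPase that joins the ribosomal subunits, was at 286 and 183 CPM in CYR61 and 146 and 192 CPM in vector libraries (log2 fold change 0.47, SE 0.20, edgeR adjusted p = 0.190). Its groups overlapped, its GC content was 38.6%, and it was called without CYR61 2 (edgeR adjusted p = 0.000531) or vector 2 (0.0210). EIF5A had a log2 fold change of 0.22, EIF6, which keeps large subunits from joining too early, of 0.06, and EIF5A2 of -0.03 at 1.88 to 4.88 CPM. A further pair of genes carries the EIF name without being an initiation factor in the usual sense. EIF4A3, the helicase of the exon junction complex, was at 229 and 231 CPM in CYR61 and 194 and 182 CPM in vector libraries (0.29, edgeR adjusted p = 0.140). EIF1AD, a gene with an eIF1A-like domain, was at 49.9 and 49.0 CPM in CYR61 and 40.0 and 34.8 CPM in vector libraries (0.40, SE 0.14, edgeR adjusted p = 0.106). Both stood higher in both CYR61 libraries and had an unadjusted edgeR p below 0.05, and neither was called by edgeR or DESeq2. Of all tested genes, 23.9% stood higher in both CYR61 libraries and 22.9% had such a p.

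Removal of the per-library GC trend raised the number of called members to 25 of 51 (49.0%), where 28.0% of all tested genes were called. Of those 25, 19 were higher (37.3%, against 14.8% of all tested genes) and 6 lower (11.8%, against 13.2%). The 4 calls named above kept their sign and their call. The lower genes were EIF1, EIF1B, EIF2S2, EIF4A2, EIF4B and EIF4EBP1. The higher ones included EIF4G1 (log2 fold change 0.61, edgeR adjusted p = 0.000121), EIF3B (0.46, 0.000711), EIF4E2 (0.44, 0.00152), EIF2B3 (0.46, 0.00380) and EIF4E (0.38, 0.00657). With the replicate number as a block as well, 10 of the 51 members were higher and 4 lower. Among all tested genes 16.1% were then called, 8.09% higher and 8.05% lower. With the block alone 0 members were called by edgeR, where 3.08% of all tested genes were, 0.417% higher and 2.66% lower. The numbers do not pair the libraries, and same-numbered libraries did not deviate together (correlation of deviations from the group means -0.377). The part of this in the lost calls was not tested. The part of the GC trend in the group differences was not tested beyond these values.

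**Figure D4:**
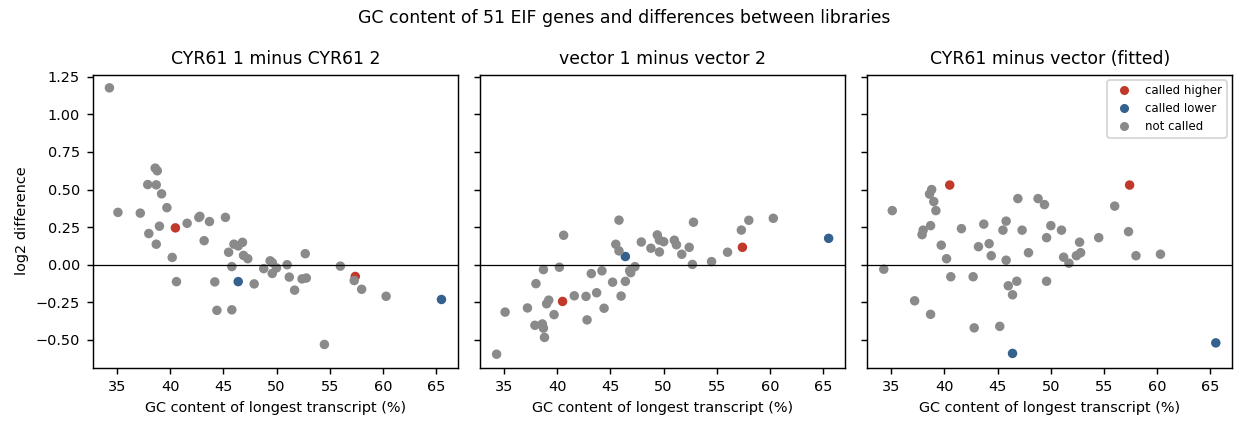
GC content (x axis, percent of the longest transcript) of the 51 EIF genes against log2 differences between replicates of a group (left and middle) and the fitted log2 fold change, CYR61 minus vector (right). Replicate differences followed GC content in opposite directions by number (rho -0.76 and 0.79), while the group difference did so little (rho -0.08).

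Of 56 genes listed as partners of these factors, 54 reached 1 CPM, and 2 were higher and 3 lower (9.26%), where 6.39% of all tested genes were called, 1.83% higher and 4.56% lower. The counts at an unadjusted p in the lists below stand beside the same 22.9% of all tested genes. Of 13 genes for the eIF2 phosphatase and for proteins that activate or restrain the kinases, 1 was lower. PPP1R15A (GADD34), which brings the phosphatase to eIF2, was at 40.0 and 50.6 CPM in CYR61 libraries, against 86.0 and 80.1 CPM in vector libraries. Its groups stood far apart (log2 fold change -0.88, SE 0.14, edgeR adjusted p = 0.00626). It stayed called with any 1 library left out (edgeR adjusted p of at most 0.00959). PPP1R15B, the constitutive counterpart, had a log2 fold change of -0.15 and was not called. The next list held 12 genes around the kinases of the 4E-BPs and eIF4E, not all of them kinases. They were MTOR, RPTOR, MLST8, AKT1S1, DEPTOR, RHEB, RPS6KB1, RPS6KB2, PDCD4, MKNK1, MKNK2 and LARP1. Of these, 0 were called by edgeR or DESeq2. An unadjusted edgeR p below 0.05 was seen for 2, a lower share than the 22.9% of all tested genes. Their log2 fold changes ran from -0.72 (DEPTOR) to 0.29 (MKNK1), 6 above 0 and 6 below, with MTOR at -0.05. DEPTOR was at 3.07 and 4.26 CPM in CYR61 and 5.84 and 6.16 CPM in vector libraries (edgeR adjusted p = 0.103).

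Of the 4 poly(A)-binding genes that reached 1 CPM, PABPC4 was higher, at 380.5 and 355 CPM in CYR61 and 275 and 265 CPM in vector libraries (log2 fold change 0.44, edgeR adjusted p = 0.0393). That call was lost without CYR61 1 (edgeR adjusted p = 0.184), without vector 1 (0.170) and without vector 2 (0.242). ABCE1, which recycles ribosomes, had a log2 fold change of 0.67 (edgeR adjusted p = 0.0509), with groups that did not overlap. Of its list of 8 accessory factors 0 were called by edgeR and 1 by DESeq2, and 1 had an unadjusted edgeR p below 0.05. Of 10 elongation and termination genes 0 were called by edgeR or DESeq2, with 2 at an unadjusted edgeR p below 0.05. Neither tool called the 2 genes of the enzymes that make hypusine on eIF5A or the 2 genes of mitochondrial initiation, of which 0 and 1 had an unadjusted edgeR p below 0.05.

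The mRNAs of ATF4, DDIT3 and ATF5 carry upstream reading frames and are translated more when eIF2 is phosphorylated. ATF4 was at 153 and 177 CPM in CYR61 libraries, against 264 and 232 CPM in vector libraries (log2 fold change -0.59, edgeR adjusted p = 0.0213). The call was lost without CYR61 1 (edgeR adjusted p = 0.110) or vector 1 (0.141). DDIT3, encoding CHOP, was at 8.33 and 9.15 CPM in CYR61 and 26.2 and 25.2 CPM in vector libraries (-1.56, edgeR adjusted p = 0.000617). ATF5 went the other way, at 22.7 and 26.1 CPM in CYR61 and 12.1 and 12.3 CPM in vector libraries (1.00, edgeR adjusted p = 0.00617).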

How the data were processed

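RNA of 2 CYR61 and 2 vector libraries of HLE cells was sequenced. Each library had a file of estimated counts, deposited by the authors, in which 11.2% to 12.0% of the values were not whole. Per the submitters' processing notes the build was hg38 and TopHat2 2.1.1, Cufflinks 2.2.1 and Cuffdiff 1.3.0 were used. No source used here names the counting program, annotation release or strandedness. Estimated counts were rounded. Genes kept by filterByExpr (12698; 7588 not tested) were scaled by TMM and tested with edgeR 4.0.16 (glmQLFit, glmQLFTest, R 4.3.3) on group alone. CPM uses TMM-scaled library sizes, and TPM the union of exon lengths. SEs were derived from the fold change and its F statistic (size of the log2 change over the root of F). The GC trend was a natural spline with 5 degrees of freedom per library, used as an offset. Positions, exons and GC content came from GENCODE 29 on GRCh38, the assembly hg38 names, and symbols from a table holding 20228 of 20286 identifiers. Libraries held 16186991 to 21588805 rounded counts, which bounds precision for low genes.

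Members and lists were chosen with earlier results of these data known. Named in full were called members, the eIF2 kinases, the 4E-BP genes and, per complex, the member with the largest change, and of the partners the called genes; others were named after their values were seen. Same-numbered libraries did not deviate together (correlation of deviations from the group means -0.377). Alternatives were DESeq2 1.42.0, limma-voom (limma 3.58.1), other scalings and filters, a replicate block, the GC trend removed and each library left out. Scripts were tested on simulated data.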

Additional observations from a re-analysis of the deposited data

How the results depend on the processing

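Over 15 alternatives, 679 of 763 EIF gene values kept their direction and side of the threshold. Among the called members, losses of the call stand beside each gene above, and all 4 were lost with the replicate number as a block (edgeR adjusted p = 0.123 to 0.223). With the replicate block 391 genes were called in all, 0 members higher and 0 lower, and 1 partner gene higher and 2 lower. The numbers do not pair the libraries, and a block with crossed numbers, chosen after seeing the data, gave 5624 calls. With the GC trend removed 3551 genes were called, 19 members higher and 6 lower, and 11 partner genes higher and 7 lower. Adding the replicate block to this gave 2049 genes, 10 members higher and 4 lower, and 6 partner genes higher and 3 lower. Without a filter 1677 genes were called, with 6 members higher and 3 lower, and 4 partner genes higher and 4 lower. DESeq2 called 4 members higher and 2 lower, and RLE size factors left 2 higher and 1 lower. With 1 library left out, the lone library is assumed to vary like the others, and the counts were 481 to 1331 genes in all, 1 to 7 members higher, 0 to 2 members lower, 1 to 3 partner genes higher and 2 to 4 lower. The 481 came without vector 1 and the 1331 without CYR61 2. Signs turned for 14 uncalled members in some setting. With 1 library left out the log2 fold change ran from -0.06 to 0.31 for EIF2A, -0.23 to 0.07 for EIF2S3, -0.13 to 0.19 for EIF2B2, -0.02 to 0.50 for EIF2AK2, -0.09 to 0.23 for EIF2AK3, -0.12 to 0.46 for EIF3CL, -0.08 to 0.44 for EIF3E, -0.16 to 0.02 for EIF3F, -0.08 to 0.23 for EIF3G, -0.01 to 0.11 for EIF3I, -0.05 to 0.22 for EIF3K, -0.07 to 0.11 for EIF4ENIF1, -0.90 to 0.46 for EIF5A2 and -0.08 to 0.21 for EIF6. EIF4ENIF1 was also at -0.00 with library size alone and at -0.01 with at least 5 CPM in 2 libraries. The cause of these changes was not tested. The lowest members were the least precise, with SEs of 0.35 for EIF4E3 (20 to 44 counts per library) and 0.40 for EIF5A2 (30 to 105 counts, GC content 34.3%) on the log2 scale. The parts of depth and GC content in this were not tested.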
